A study of Rattus norvegicus with 16 samples.

Results

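Stac3 is 1 of the 17168 genes measured by RNA sequencing in rat liver, and it was taken up here for the size of its difference between diets. The member is the single row named Stac3 in the deposited gene tables, read in all 16 libraries. Since its diet difference chose it, that difference is described below without a test, and only the comparison of genotypes, which played no part in the choice, is tested. The livers came from Sprague Dawley rats that ate normally for their first 12 weeks and were then kept on 1 of 2 diets for 8 weeks, to an age of 20 weeks. The 4 groups of 4 libraries were tspo -/- rats on the methionine-choline deficient (MCD) diet (KO-MCD), wild-type rats on the MCD diet (WT-MCD), tspo -/- rats on chow (KO-CHOW) and wild-type rats on chow (WT-CHOW). The labels do not describe the tspo allele, the sex of the rats or whether each library is a separate animal, so the p-values below measure the spread between libraries. The MCD diet withholds methionine and choline, which liver needs to make phosphatidylcholine and to export fat, and is used as a model of fatty liver with inflammation. Tspo encodes a cholesterol-binding protein of the outer mitochondrial membrane.

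STAC3 is an adaptor protein with SH3 and C1 domains. It is best known from skeletal muscle, where it binds the voltage-gated calcium channel CaV1.1 at the junctions between the surface membrane and the sarcoplasmic reticulum and is needed for excitation-contraction coupling, the step by which a nerve impulse releases calcium and makes a fibre contract. Loss of the gene paralyses or weakens muscle in mouse and zebrafish, and mutations in human STAC3 cause a congenital myopathy. Hepatocytes have no such junctions.

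Library totals ran from 8745756 to 15762660 counts. Levels are given in CPM, read counts relative to the library total after scaling by TMM factors, which correct for differences in RNA composition. The targeted gene went partly against the labels. Tspo had 4.17, 1.66, 1.02 and 1.21 CPM in the KO-MCD libraries 1 to 4, against 8.78, 9.34, 7.95 and 7.63 CPM in the WT-MCD libraries. On chow it had 1.14, 0.656, 1.29 and 4.42 CPM in the KO-CHOW libraries, against 3.80, 4.37, 3.61 and 5.23 CPM in the WT-CHOW libraries. The library labelled KO-CHOW 4 thus lay within the wild-type range on chow, and the library labelled KO-MCD 1 stood well above the other 3 of its group. The same 2 libraries and WT-CHOW 4 stood apart from the other 3 of their own group on the second principal component. KO-MCD 1 scored 44.2 (others -5.6 to 1.6), KO-CHOW 4 scored 63.7 (others -16 to -7.6) and WT-CHOW 4 scored 33 (others -43.2 to -24.8), so results that compare the genotypes are also given without these 3.

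The promoter of Stac3 is shown because the gene's level is the subject of what follows. It is the stretch of 250 bases before the transcription start, credited to RefSeq, at chr7:65228225-65228474 on the + strand of GRCr8, while the submitters' processing notes name rn6 for the deposited counts. Capitals mark both copies of CAGCTG, an E-box hexamer of the class bound by basic helix-loop-helix factors.

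Stac3 promoter: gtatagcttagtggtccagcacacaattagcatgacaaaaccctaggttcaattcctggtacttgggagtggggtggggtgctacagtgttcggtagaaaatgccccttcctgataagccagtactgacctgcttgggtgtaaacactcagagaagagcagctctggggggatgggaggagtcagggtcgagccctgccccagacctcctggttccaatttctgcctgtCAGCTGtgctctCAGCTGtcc

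The CAGCTG copies begin 21 and 9 bases before the transcription start, positions -21 and -9. In windows of 300 bases, 250 before to 50 after the start and searched on both strands, at least 1 CAGCTG was found in 15.1% of 33469 rat promoters and at least 2 in 1.69%. A CCAAT box began at -36, and 37.5% of the promoters hold one. The Stac3 window held no TATAAA (14.2% of promoters), no TTCNNNGAA, the palindrome of STAT5 type (8.87%), no TTGCGCAA, the palindrome of C/EBP type (0.170%), and no CAAAGTCCA, an HNF4A-type repeat (0.391%). These motifs were chosen after the sequence had been seen, and a match describes letters, not binding.

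Stac3 was among the well measured genes in chow-fed livers and was close to absent in livers of rats on the MCD diet. It had 3, 5, 10 and 3 reads in the KO-MCD libraries 1 to 4 and 3, 3, 3 and 6 reads in the WT-MCD libraries, against 3933, 2393, 3087 and 2250 in the KO-CHOW libraries and 3633, 3324, 2886 and 2397 in the WT-CHOW libraries. In CPM these are 0.209, 0.286, 0.728 and 0.166 for KO-MCD and 0.227, 0.196, 0.182 and 0.283 for WT-MCD, against 447, 262, 306 and 301 for KO-CHOW and 337, 309, 417 and 228 for WT-CHOW. All 8 MCD libraries were low and all 8 chow libraries were high, with no library in between, in both genotypes. The group means were 0.347 ± 0.259 CPM in KO-MCD and 0.222 ± 0.0446 CPM in WT-MCD, against 329 ± 81.0 CPM in KO-CHOW and 323 ± 77.9 CPM in WT-CHOW (SD, n = 4 libraries each). From low to high the groups run WT-MCD, KO-MCD, WT-CHOW, KO-CHOW, and in this order only WT-CHOW and KO-MCD are neighbours that do not overlap. In the authors' deposited normalised table the group means were 0.348, 0.223, 327 and 321 for KO-MCD, WT-MCD, KO-CHOW and WT-CHOW.

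**Figure D1:**
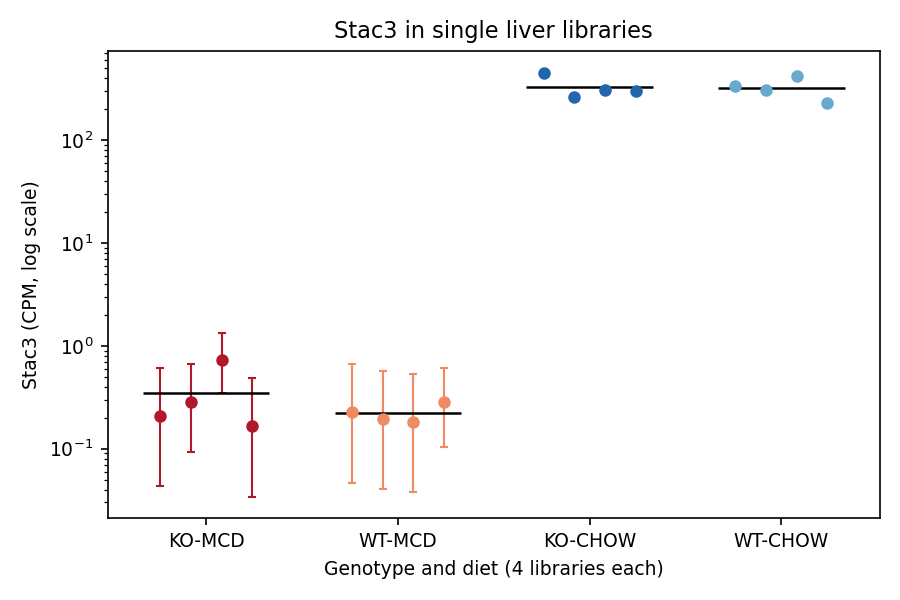
Stac3 in each of the 16 liver libraries, in CPM on a log axis, by genotype and diet. Points are libraries 1 to 4 from left to right, bars are 95% Poisson counting intervals and black lines are group means; the 8 MCD libraries sit between 0.166 and 0.728 CPM and the 8 chow libraries between 228 and 447 CPM.

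The word "shut off" describes these values only down to the depth of the libraries. No MCD library was at 0 reads, but 5 of the 8 held 3 reads, the number taken here as the detection floor, which is worth 0.141 to 0.433 CPM depending on the library. The 95% Poisson interval was 0.0342 to 0.484 CPM for the lowest library, KO-MCD 4, and 0.349 to 1.34 CPM for the highest, KO-MCD 3. These intervals overlap, so the spread of Stac3 among MCD livers is not resolved at this depth. Intervals and floors cover counting error only, not the spread between libraries, and the reads carry no molecular identifiers. Every expected count of Stac3 was a whole number, so none of its reads was split with another gene.

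Summed over the knockout libraries, Stac3 had 21 reads on MCD and 11663 on chow. Scaled for library size, the KO-MCD level was 0.100% of the KO-CHOW level, with a 95% counting interval of 0.0621 to 0.154%. This is a level 996-fold lower on MCD in the knockout, with an interval of 651 to 1610, or -9.96 on the log2 scale. In the wild type the sums were 15 reads on MCD and 12240 on chow. The WT-MCD level was 0.0721% of the WT-CHOW level (0.0403 to 0.119%), which is 1387-fold lower (841 to 2479), or -10.44 on the log2 scale. The intervals of the 2 genotypes overlap. Taken by single libraries, the lowest KO-CHOW library stood 360-fold above the highest KO-MCD library. The lowest WT-CHOW library stood 807-fold above the highest WT-MCD library. These are the same values in another form and add no separate support. Without the 3 libraries that stood apart, the log2 ratio of the mean levels, MCD over chow, was -9.75 in the knockout and -10.64 in the wild type, against -9.89 and -10.51 with all libraries. Without TMM scaling it was -9.14 in the knockout and -9.97 in the wild type.

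Genes whose libraries separate by diet were common, and Stac3 differed in how far. Every MCD library lay below every chow library for 873 of the 11162 genes that passed the filter on low counts (7.82%), and above for 991 (8.88%). The gap between the lowest chow library and the highest MCD library, with a floor of 3 reads per library, was 313-fold for Stac3. The next gaps in this direction were 12.3-fold for RGD1307603, 12.1-fold for Sult1e1, an oestrogen sulfotransferase, 12.1-fold for the cytochrome P450 Cyp2c7 and 9.32-fold for Ltc4s, the leukotriene C4 synthase. Among genes higher on MCD the widest gaps were 23.8-fold for the efflux pump Abcb1b and 15.4-fold for the macrophage elastase Mmp12. This ranking was added after the values had been seen. By fitted log2 fold, which depends on how reads of 0 are treated, the fall of Stac3 ranked 3 in the knockout, behind Sult1e1 and Ky, and 1 in the wild type, of 11162 genes.

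A rule on absolute levels uses the same values that chose Stac3, so it describes them in another way and adds no separate support. At least 5 CPM in each chow library and under 1 CPM in each MCD library was met by 1 of 17168 genes (0.00582%), Stac3. The opposite pattern, at least 5 CPM in each MCD library and under 1 CPM in each chow library, was met by 2 genes (0.0116%). These were Gpr64, an adhesion G protein-coupled receptor, with 9.14 to 23.3 CPM on MCD against 0 to 0.837 CPM on chow, and Xirp2, an actin-binding protein known from striated muscle, with 5.89 to 11.7 CPM on MCD against 0.134 to 0.909 CPM on chow. With under 2 CPM in place of 1, Ltc4s and the sulfotransferase Sult2a2 joined Stac3. With at least 10 CPM against under 0.5 CPM no gene qualified in either direction, Stac3 included, because KO-MCD 3 had 0.728 CPM.

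**Figure D2:**
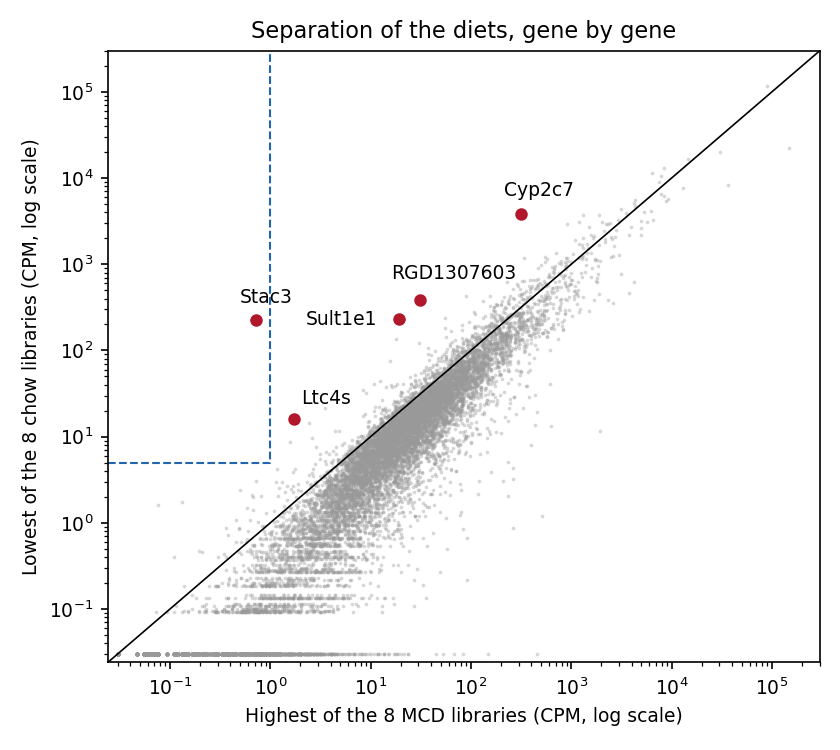
Each grey point is a gene, placed by its highest level among the 8 MCD libraries (horizontal) and its lowest level among the 8 chow libraries (vertical), both in CPM on log axes, with lower values drawn at 0.03 CPM. Points above the diagonal are genes whose chow libraries all exceed their MCD libraries; the dashed corner encloses genes of at least 5 CPM on chow and under 1 CPM on MCD, where Stac3 stands alone, and the 4 genes with the next widest gaps are marked.

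No difference of Stac3 between the tspo genotypes passed the test. The same test did not call Tspo itself, so a missing call in these contrasts does not show that a gene was unchanged. Tspo had -1.23 ± 0.49 on chow (log2 scale with SE, edgeR, adjusted p = 0.460). On MCD it had -2.07 ± 0.45 (edgeR, unadjusted p = 0.000290, not called after adjustment). On chow the knockout minus wild-type difference was 0.03 ± 0.25 on the log2 scale (SE), with a 95% interval of -0.50 to 0.55 (edgeR's quasi-likelihood test, Benjamini-Hochberg adjusted p = 0.973 over 11162 genes). The range of KO-CHOW, 262 to 447 CPM, nearly covers that of WT-CHOW, 228 to 417 CPM. A difference within that interval is not detectable with 4 libraries a group. In this contrast 1 gene of 11162 was called (0.00896%), and without the 3 libraries that stood apart 516 were, while the Stac3 difference was then -0.07 with an adjusted p of 0.879 by edgeR.

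On MCD the knockout minus wild-type difference of Stac3 was 0.55 ± 0.47 on the log2 scale (SE), with a 95% interval of -0.45 to 1.55 (edgeR, adjusted p = 1.000). It rests on the library KO-MCD 3, whose 10 reads compare with 3 to 6 in the other 7 MCD libraries. Without it the difference was -0.03, and the other 7 libraries ran from 0.166 to 0.286 CPM. Without the 3 libraries that stood apart the difference was 0.69 with an adjusted p of 1.000. EdgeR called 0 of 11162 genes in this contrast, with 81 at an unadjusted p under 0.05, and DESeq2 also called 0.

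Among chow-fed livers Stac3 varied about as much as a typical gene. Its lowest, median and highest levels over the 8 chow libraries were 228, 307 and 447 CPM, a 1.96-fold range and a coefficient of variation of 22.6%. For 7939 genes that averaged at least 5 CPM on chow the median range was 2.08-fold and the median coefficient of variation 24.2%. The library of lowest Stac3 on chow, WT-CHOW 4, was 1 of the 3 that stood apart, and the library labelled KO-CHOW 4, which also stood apart, had 301 CPM, close to the median.

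The other STAC gene measured did not share the pattern of Stac3. Stac2, a paralog with the same domain plan that also binds voltage-gated calcium channels, went the other way at a low level. It had 6, 13, 9 and 12 reads in the KO-MCD libraries and 5, 13, 7 and 16 in the WT-MCD libraries, against 0 in each KO-CHOW library and 0, 0, 2 and 0 in the WT-CHOW libraries. All MCD libraries (0.379 to 0.849 CPM) lay above all chow libraries (0 to 0.289 CPM), as they did for 8.88% of all genes that passed the filter. The summed level was at least 7.43-fold higher on MCD in the knockout, against a floor of 3 reads over the KO-CHOW group, and 12.1-fold higher in the wild type (95% counting interval 3.13 to 103). Stac2 passed the filter on low counts only through the MCD libraries, so these values are a description and no test of its difference is given. The family's first gene, Stac, was not analysed here.

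Of 16 genes of excitation-contraction coupling, among them subunits of CaV1.1, junctophilins, triadin and calsequestrin, 14 were measured and 9 of these stayed under 1 CPM in all libraries. Cacna1s, which encodes the channel that STAC3 binds, had no more than 0.0572 CPM in any library, and Cacng1 and Sln were at 0 throughout. Only 5 passed the filter. Of these, 0 were called between diets in the knockout, and 1 rose and 2 fell in the wild type, in contrasts where 40.4% of all genes tested were called in the knockout (21.9% rose and 18.5% fell) and 34.1% in the wild type (18.2% rose and 15.9% fell). Without TMM scaling 3 rose and 0 fell in the knockout, and 2 rose and 0 fell in the wild type. Over all genes 6852 were then called in the knockout, 94.1% of them as higher on MCD. In the wild type 5314 were called, 90.4% of them as higher. Unscaled counts of the lists below are to be read beside these shares. Under TMM the gene of this list that rose was the channel subunit Cacna2d1. It had 0.487 to 1.33 CPM in KO-MCD and 0.833 to 1.44 CPM in WT-MCD, against 0.134 to 0.990 CPM in KO-CHOW and 0.278 to 0.722 CPM in WT-CHOW. It passed the filter mainly through the MCD groups, and Casq1, a calcium-binding protein that fell, did so with a highest level of 3.03 CPM in WT-CHOW, so no weight is placed on either call. The other gene that fell, the calcium-binding protein gene Hrc (-1.11 ± 0.37 on the log2 scale with SE, edgeR, adjusted p = 0.0315), lost its call without any 1 of WT-MCD 2, 3 and 4 and WT-CHOW 2 and 3 (0.0551 to 0.0900). In the knockout 1 gene of this list was called with the replicate block, without KO-MCD 1 or without KO-CHOW 3.

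Markers of skeletal muscle were close to 0 on both diets. All 14 measured muscle markers, of 16 listed, were under 1 CPM in all libraries, the highest being 0.937 CPM for the myosin light chain Mylpf, and Myh7 and the myoglobin gene Mb were at 0 in all of them. Their summed level was 0.626 to 1.37 CPM in KO-MCD and 1.04 to 1.67 CPM in WT-MCD, against 0.568 to 2.08 CPM in KO-CHOW and 0.856 to 1.95 CPM in WT-CHOW. The groups overlap, while Stac3 alone stood at 228 CPM or more in the chow livers.

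Some of the liver's own cell type markers did move with diet, by much less than Stac3. The summed level of 10 hepatocyte markers was 92877 to 110454 CPM in KO-MCD and 85754 to 125613 CPM in WT-MCD, against 172922 to 227648 CPM in KO-CHOW and 167282 to 198547 CPM in WT-CHOW, with no overlap between diets. In each genotype 5 of the 10 fell and 0 rose, where 18.5% of all genes tested fell in the knockout and 15.9% in the wild type. Among them were albumin (Alb, -1.05 in the knockout and -0.82 in the wild type), which carried most of the sum, and transthyretin (Ttr, -2.03 and -1.96). Of the markers not called, Apoa1 (0.25 and 0.19), Apob (0.17 and 0.25) and Cps1 (0.21 and 0.46) leaned up. Tat (-0.04 and -0.01) and Hnf4a (-0.48 and -0.27) leaned down. Without TMM scaling 1 of the 10 fell and 2 rose in the knockout, and 2 fell and 1 rose in the wild type. The sum over 4 macrophage markers, carried mostly by Clec4f on chow, was 92.6 to 203 CPM in KO-MCD and 75.6 to 159 CPM in WT-MCD, against 256 to 417 CPM in KO-CHOW and 217 to 318 CPM in WT-CHOW. In each genotype 2 of the 4 fell, Clec4f and Marco, and 0 rose. Cd68 leaned the other way without passing the test, with 25.9 to 54.6 CPM in KO-MCD and 32.8 to 53.9 CPM in WT-MCD, against 6.43 to 29.9 CPM in KO-CHOW and 14.2 to 37.9 CPM in WT-CHOW. The sum over 2 bile duct markers was 36.2 to 58.9 CPM in KO-MCD and 43.2 to 47.4 CPM in WT-MCD, against 13.5 to 20.2 CPM in KO-CHOW and 15.4 to 28.9 CPM in WT-CHOW. Only these 2 of 4 listed were measured. Their sum was carried mostly by Epcam, which rose in both genotypes (1.65 in the knockout and 1.35 in the wild type). Krt19 overlapped between diets and was not called (0.98 and 0.17). Without TMM scaling 2 rose in the knockout and 1 in the wild type. Among the stellate markers 2 of 6 rose in the knockout and 1 in the wild type, and among the endothelial markers 2 of 5 rose in the knockout, while 1 rose and 1 fell in the wild type, where 21.9% and 18.2% of all genes tested rose in the knockout and the wild type. Without TMM scaling 6 of the 6 stellate markers rose in the knockout and 3 in the wild type, and 5 of the 5 endothelial markers rose in the knockout and 2 in the wild type. The macrophage counts without it were 2 up and 2 down in the knockout, and 1 up and 1 down in the wild type. Over all genes, 94.1% of the 6852 knockout calls and 90.4% of the 5314 wild-type calls were then higher on MCD. The part of cell composition in the Stac3 difference was not tested, and in whole liver fewer cells of a type and less RNA per cell cannot be told apart.

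Of 20 calcium-handling genes that liver cells use, 17 passed the filter, and in the knockout 3 rose and 3 fell with the MCD diet while in the wild type 2 rose and 4 fell. That is 6 of 17 in each genotype, a share near the 40.4% and 34.1% of all genes called. The store-operated channel genes Orai1 and Orai3 fell in both, Orai1 by 0.95 on the log2 scale in the knockout and by 0.87 in the wild type, Orai3 by 0.91 and by 0.69. The calcium-binding protein gene Calu rose by 0.66 in the knockout and 1.06 in the wild type. Without TMM scaling 12 rose and 0 fell in the knockout, and 9 rose and 0 fell in the wild type, so the direction of this list depends on the scaling. None of these genes approached the range of Stac3, the list's median being 0.21 in the knockout and 0.06 in the wild type beside 0.04 and 0.00 over all genes tested.

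The genes beside Stac3 on the chromosome did not all differ in the same direction as Stac3. By start position in the RefSeq gene table of GRCr8, used for order only, the 10 genes on each side include 11 that are in the count table, and 8 passed the filter. In the knockout 4 fell and 3 rose with the MCD diet, in a contrast where 18.5% of all genes tested fell and 21.9% rose. In the wild type 2 fell and 1 rose, where 15.9% fell and 18.2% rose. On the one side of Stac3, the inhibin beta chain genes Inhbc and Inhbe, which encode secreted proteins of the TGF-beta family made by hepatocytes, were lower on MCD. Inhbc had 63.9 to 81.8 CPM in KO-MCD and 48.9 to 78.6 CPM in WT-MCD, against 171 to 235 CPM in KO-CHOW and 171 to 200 CPM in WT-CHOW. It fell by 1.54 ± 0.16 on the log2 scale in the knockout and by 1.58 ± 0.17 in the wild type (edgeR, adjusted p = 9.19e-06 and 8.91e-06). Inhbe fell by 1.44 ± 0.30 in the knockout (adjusted p = 0.00148) and had -0.63 ± 0.29 in the wild type (adjusted p = 0.103). Without TMM scaling the Inhbe difference in the knockout was -0.73 and its call was lost (adjusted p = 0.0676), and of the neighbours 1 fell and 3 rose in each genotype. Of all calls without this scaling, 94.1% were higher on MCD in the knockout and 90.4% in the wild type.

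R3hdm2, the nearest gene upstream that was measured, fell by 0.72 ± 0.23 in the knockout and by 0.74 ± 0.23 in the wild type (adjusted p = 0.0211 in both). Its knockout call was lost without KO-CHOW 1 (adjusted p = 0.0826), with upper quartile factors (0.0542) and in a fit of the 2 groups alone (0.0636), and its wild-type call without WT-MCD 2, WT-CHOW 1 or WT-CHOW 3 (0.0514, 0.0537 and 0.0610). On the other side the nearest measured gene, Ndufa4l2, had 0 to 0.742 CPM in all libraries and was not tested. Shmt2, the mitochondrial serine hydroxymethyltransferase, fell by 0.51 ± 0.14 in the knockout (adjusted p = 0.00849) and had -0.23 ± 0.14 in the wild type (adjusted p = 0.198). Without TMM scaling R3hdm2 was at 0.01 in the knockout and Shmt2 at 0.22 in the knockout and 0.29 in the wild type. Lrp1, a large endocytic receptor, passed no test.

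Stat6, the transcription factor of interleukin 4 signalling, was higher on MCD, the opposite direction to Stac3. It had 19.7 to 36.1 CPM in KO-MCD and 28.3 to 38.9 CPM in WT-MCD, against 8.43 to 15.2 CPM in KO-CHOW and 11.3 to 15.6 CPM in WT-CHOW, a rise of 1.34 ± 0.21 and 1.33 ± 0.21 on the log2 scale (adjusted p = 0.000180 and 0.000214). Nab2, a corepressor of EGR factors, and Arhgap9 rose in the knockout by 0.61 ± 0.23 and 0.67 ± 0.25 (adjusted p = 0.0430 and 0.0407). Each of these calls was lost under 8 of 17 alternatives. Nab2 lost it without any 1 of KO-MCD 3 and 4 and KO-CHOW 1, 3 and 4 (adjusted p 0.0669 to 0.113), and Arhgap9 without any 1 of KO-MCD 1, 2 and 3 and KO-CHOW 2 and 4 (0.0601 to 0.118). The largest size among these 8 neighbours, 1.58, compares with about 10 for Stac3 on the same scale.

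**Figure D3:**
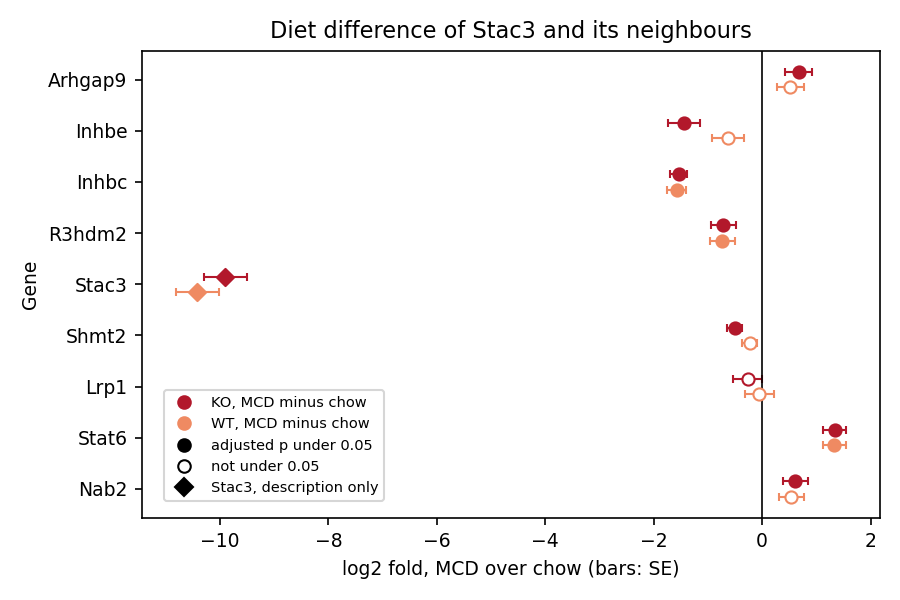
Log2 fold change between diets (MCD over chow) of Stac3 and the 8 neighbouring genes that passed the filter, in chromosome order from top to bottom, in knockout and wild-type livers. Bars are SE, filled circles have an adjusted p under 0.05, open circles do not, and the diamonds of Stac3 are a description; Stac3 lies near -10 while its neighbours lie between -1.58 and 1.34.

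Over the 16 libraries, the genes with a profile most like that of Stac3 were found by the root mean square difference of log2 CPM, each gene being centred on its mean of the 8 chow libraries. The 10 nearest were Sult1e1, Cyp2c7, Pnpla5, Ky, Ltc4s, LOC100911576, Prss32, Sult2a1, Aspg and RGD1307603, with differences from 2.27 for Sult1e1 to 3.58 for RGD1307603. These genes were picked for their fall on MCD, and their values are a description.

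Sult1e1 was at 0 in 6 of 8 MCD libraries and had 0.0552 CPM in KO-MCD 4 and 19.4 CPM in WT-MCD 1, against 552 to 1647 CPM in KO-CHOW and 235 to 1373 CPM in WT-CHOW. With the prior count of 2, Sult1e1 was the only one of the 10 that lay further below its chow level than Stac3 in most MCD libraries. However, 1 library kept a level that Stac3 reached in none. Ky, which like Stac3 is best known from muscle, where it helps maintain fibres, was at 0 in 7 of 8 MCD libraries with 0.0757 CPM in WT-MCD 1, against 1.61 to 29.1 CPM in KO-CHOW and 2.60 to 7.70 CPM in WT-CHOW. Its low level on chow leaves little room to measure a fall. The unnamed locus LOC100911576 had 0.209, 0, 24.2 and 25.5 CPM in the KO-MCD libraries and 1.51, 0, 0 and 0 CPM in the WT-MCD libraries, against 40.7 to 69.7 CPM in KO-CHOW and 42.9 to 69.1 CPM in WT-CHOW.

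Stac3 was steadier on chow than most of these genes. Its 1.96-fold range over the 8 chow libraries compares with 7.02-fold for Sult1e1, 3.00-fold for Cyp2c7, 6.89-fold for the lipase Pnpla5, 18.1-fold for Ky, 4.09-fold for Ltc4s and 9.03-fold for the serine protease Prss32. Only LOC100911576, at 1.71-fold, was narrower, and RGD1307603, at 2.01-fold, was close. Cyp2c7 and the sulfotransferases belong to families of close copies, between which the counting may have divided reads. Of these 10 genes, 8 have a promoter in the RefSeq table, and CAGCTG was found in 1 of the 8.

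**Figure D4:**
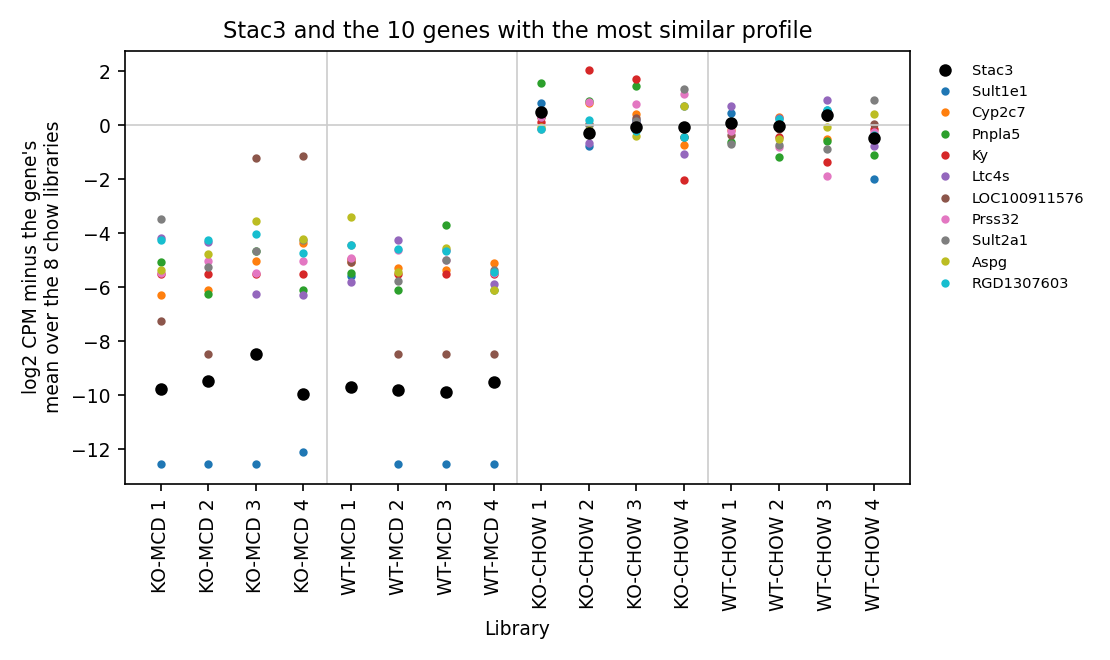
Log2 CPM (prior count of 2) of Stac3 (black) and the 10 genes of most similar profile in each library, relative to each gene's own mean over the 8 chow libraries. Stac3 lies between about -8.5 and -10 in all MCD libraries, Sult1e1 lies lower in 7 of them, and the other genes mostly lie between -3 and -8.5, with LOC100911576 near -1 in KO-MCD 3 and KO-MCD 4.

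Genes controlled by growth hormone were examined because Cyp2c7, second in likeness to Stac3, is a known growth hormone target with higher levels in female than in male rat liver. Of 12 genes of the growth hormone and prolactin axis, 5 fell and 0 rose on MCD in the knockout, and 6 fell and 1 rose in the wild type, with medians of -0.61 and -1.41 on the log2 scale, where 18.5% and 15.9% of all genes tested fell. The prolactin receptor gene Prlr had 1.74 to 8.37 CPM in KO-MCD and 0.612 to 2.95 CPM in WT-MCD, against 17.1 to 131 CPM in KO-CHOW and 22.6 to 69.9 CPM in WT-CHOW. It fell by 4.24 ± 0.64 on the log2 scale in the knockout and fell by 5.12 ± 0.69 in the wild type (edgeR, adjusted p = 0.000145 and 6.37e-05). Igf1, the hormone through which growth hormone acts on growth, fell by 2.46 and by 2.82. All 5 female-biased genes were called as lower on MCD in both genotypes. Cyp2c7 is 1 of them and was picked for its fall. A1bg, at 1 to 5 reads in every MCD library, passed the filter only through the chow libraries. No weight is placed on these calls. The others, Cyp2c12, Srd5a1 and Cux2, had -3.29, -3.44 and -2.77 on the log2 scale in the knockout. In the wild type they had -2.09, -2.85 and -3.86. Of these, Cux2 was low and overlapped between diets, and its knockout call was narrow (edgeR, adjusted p = 0.0470). It had 0.0695 to 2.04 CPM in KO-MCD and 0.303 to 1.11 CPM in WT-MCD. On chow it had 0.134 to 13.7 CPM in KO-CHOW and 0.761 to 36.9 CPM in WT-CHOW. Of 7 male-biased genes 3 fell in the knockout and 5 in the wild type, with 0 rising in either. Without TMM scaling 3 of the 12 axis genes fell and 3 rose in the knockout, and 5 fell and 2 rose in the wild type. Of the female-biased genes 4 then fell in each genotype, with the call of Cux2 lost in the knockout and that of A1bg in the wild type. Of the male-biased genes 3 fell and 1 rose in the knockout, and 4 fell and 0 rose in the wild type. Over all genes, 94.1% of the knockout calls and 90.4% of the wild-type calls were then higher on MCD. In the knockout minus wild-type contrasts edgeR called 0 genes of any list on either diet. Over all 11162 genes it called 1 on chow (0.00896%) and 0 on MCD, so this says nothing particular about the lists.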

How the data were processed

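Poly(A) RNA was sequenced from 16 rat liver libraries. The authors deposited expected counts per gene, for which the submitters' processing notes list Bowtie2 2.1.0, RSEM 1.2.15 and rn6 without roles. They also deposited a normalised signal: each of its 202017 non-zero values is a rounded count multiplied by a constant of its library (relative tolerance 1e-06). Of the expected counts 88.9% were whole; all were rounded. In R 4.3.3, edgeR 4.0.16 was run with filterByExpr (11162 of 17168 genes kept), TMM factors, 1 term per group, robust quasi-likelihood tests and Benjamini-Hochberg adjustment over all genes tested; a call is an adjusted p under 0.05. DESeq2 1.42.0 was an alternative. The scripts were tested on simulated data. Between diets the median gene moved by 0.057 in the knockout and 0.03 in the wild type (log2) under TMM, by 0.759 and 0.549 without scaling, and by 0.161 and 0.071 under upper quartile factors, so differences are relative to most genes.

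Genes named are Stac3, Tspo, the STAC family, up to 4 called members per list, neighbours that passed the filter, the 10 genes most like Stac3 and the on-off genes. Stac3, the lists and the tests were chosen with earlier results of these data known. Poisson intervals are at 95%. Correlations of deviations between libraries of the same number ran from -0.316 to 0.511, with no pairing common to all numbers. The highest, 0.511, was between KO-CHOW 4 and WT-CHOW 4, which both stood apart. Libraries numbered 4 carry the last sample numbers in each group, and the labels name no batch. Gene names matched RefSeq symbols (14504) or synonyms (2242) of GRCr8.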

Additional observations from a re-analysis of the deposited data

Results flagged for a closer look

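In 12 of the 136 groups of 4 libraries looked at, for 34 genes, the highest or lowest library stood far outside the range of the other 3 by Dixon's test, which by chance marks about 1 group in 20. No Stac3 group was among them. Tspo had 4.42 CPM in the library labelled KO-CHOW 4, against 0.656 to 1.29 CPM in the other 3, and in the same library Igf1 was low at 583 CPM and Sult2a1 high at 3909 CPM. Sult2a1 was also high in WT-CHOW 4, at 2961 CPM, and Gpr64 was at 0 there. Cacna2d1 was low in the library labelled KO-MCD 1, at 0.487 CPM. WT-MCD 1 held 19.4 CPM of Sult1e1, 1.51 CPM of LOC100911576 and 0.0757 CPM of Ky, while its Stac3 level, 0.227 CPM, was like that of the other WT-MCD libraries. For the remaining values, Pnpla5 had 2.43 CPM in WT-MCD 3, Sult1e1 0.0552 CPM in KO-MCD 4 and Stac2 0.289 CPM in WT-CHOW 3. That of Stac2 came from 2 reads, and those of Sult1e1 in KO-MCD 4 and Ky in WT-MCD 1 from 1 read each. Where the other 3 libraries are at 0, Dixon's test marks any read, so the rate of 1 in 20 does not hold there. The causes of the marked values were not tested.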

How the results depend on the processing

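The log2 ratio of mean Stac3 levels, MCD over chow, was -9.89 in the knockout and -10.51 in the wild type, and stayed far below 0 under all scalings and with any library left out (-10.54 to -9.66 and -10.64 to -10.36); library totals alone gave -9.97 in the wild type. The Stac3 genotype difference passed no threshold under any alternative (adjusted p 0.65 to 1.0 on chow, 0.999 to 1.0 on MCD). Its sign was not stable: on chow it was -0.04 with upper quartile factors, -0.22 with library totals, -0.07 without the 3 libraries that stood apart and -0.16 to 0.17 with 1 library left out, and on MCD it was -0.03 to 0.80 with 1 library left out. Fitted on the 2 MCD groups alone, Stac3 did not pass the filter and has no value. With the replicate block, a term for library number, the differences were 0.05 on chow and 0.52 on MCD. Calls between diets then numbered 4238 in the knockout and 3655 in the wild type, against 4514 and 3809.

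Library totals gave 6852 calls in the knockout, 94.1% of them higher on MCD, and 5314 in the wild type, 90.4% of them higher, against 54.2% and 53.3% with TMM. With 1 library left out these counts ran from 3347 to 5343 and from 2832 to 3875. Between genotypes on chow the 1 call became 2 with library totals, 23 with DESeq2, 0 in a fit of the 2 groups alone, 4 without both knockout libraries of high Tspo, 516 without the 3 libraries that stood apart and 0 to 17 with 1 left out, the highest being without WT-CHOW 4. On MCD the 0 calls became 1 without both of high Tspo, 1 without the 3 that stood apart and 0 to 1 with 1 left out. Both sets were chosen after seeing the data, and the cause of these shifts was not tested. On-off genes numbered 0 in each direction at 10 against 0.5 CPM, and 3 high on chow and 7 high on MCD at 5 against 2 CPM. Of the 10 genes most like Stac3, 8 were shared when the prior count was 0.5. With library totals the sign turned for Shmt2 (0.22 in the knockout, 0.29 in the wild type), Calr (0.13 and 0.05), Lrp1 (0.49 in each), and in the knockout for R3hdm2 (0.01) and Hrc (0.23); Lrp1 also turned without the libraries that stood apart or without both of high Tspo (0.15 in the knockout) and ran from -0.13 to 0.02 in the wild type with 1 library left out. Depth limits Stac3 on MCD to a few reads per library.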
